A study of Saccharomyces cerevisiae with 15 samples.

Results

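Yeast cells deleted for UME1 and expressing a toxic huntingtin fragment were set against cells that expressed the same fragment and kept UME1. All arrays of these strains entered, 6 of the 15 in the series, chosen by their titles: 3 of the ume1 deletion with Htt103Q and 3 of Htt103Q. Both groups were of the BY4741 background, of mating type a, and made a fragment of human huntingtin with 103 glutamines (Htt103Q) from a galactose-inducible promoter. Per the labels, cultures of 12 mL grew at 30 °C in synthetic medium lacking uracil and containing 2% galactose, and were taken at an optical density near 1 after a start at 0.2. Biotin-labelled RNA was hybridised to Affymetrix Yeast Genome S98 arrays. The other 9 arrays, of cells with a 25-glutamine fragment (Htt25Q) and of bna4 and mbf1 deletions with Htt103Q, only lent their spread to the test. No ume1 deletion without Htt103Q was analysed here, so the deletion and its interplay with the fragment cannot be told apart. The labels do not say that the 3 arrays of a group came from separate cultures, or how many clones of the deletion were used. The p-values therefore measure a spread between arrays within groups, pooled over all 15 arrays, which may be technical.

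Ume1 is a WD-repeat subunit of the Rpd3 histone deacetylase complexes of budding yeast. Rpd3 and Sin3 form the core of both complexes, the large Rpd3L and the small Rpd3S. Ume6 brings Rpd3L to genes that carry the URS1 element, among them early meiotic genes and some metabolic genes, which it keeps silent in mitotic growth. Deletions of UME1 and BNA4 are known to reduce the toxicity of mutant huntingtin fragments in yeast. BNA4 encodes kynurenine 3-monooxygenase of the kynurenine pathway, which makes NAD from tryptophan and whose intermediates are studied in Huntington's disease.

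Values are log2 signal as deposited, 1 per probe set and array, given in array order 1, 2 and 3. A probe set was called higher or lower in the ume1 deletion when its adjusted p was under 0.05 (limma, 15 arrays, Benjamini-Hochberg over 9275 probe sets). A difference of 1 on this scale is a doubling. UME1 itself had 2.79, 2.22 and 2.06 in ume1 deletion arrays, against 6.61, 6.87 and 6.69 in Htt103Q arrays. The difference was -4.37 ± 0.155 (n = 3 each), 20.6-fold lower in the deletion, with an adjusted p of 5.47e-08. Here and below, ± is the standard error of the limma fit, whose spread is pooled over the 5 groups of all 15 arrays. The deletion arrays lay at or near 2.06, the lowest value of an array, called the floor here. The genes beside UME1 in the R64 gene order, SPP1, MKK2, GIP3 and FRK1, were not called, with differences between -0.38 and -0.01. LEU2 and MET17, which BY4741 lacks, lay at or near the floor in all 6 arrays, and HIS3 (0.01 and -0.23 by its probe sets) was not called. The MATa genes MFA1, MFA2 and STE2 were well above the floor in all 6 arrays. Of 4 alpha-specific genes, only the alpha-factor gene MF(ALPHA)2 was at it in all 6, so these markers are not uniformly at the floor.

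Array medians were 6.39 to 6.45 in the ume1 deletion and 6.35 to 6.47 in Htt103Q. Array 1 of the ume1 deletion stood apart in ribosomal RNA. The mean of the 18S control probe sets was 10.4, 6.49 and 7.30 in the ume1 deletion, against 7.21, 6.83 and 5.94 in Htt103Q, and that of the 25S sets was 11.3, 8.17 and 9.12, against 8.71, 8.80 and 7.76. Where leaving out this array changed a list's count, that count is given too. Of the lent arrays, Htt25Q array 1 stood apart in its ACT1 control: the 3′ minus 5′ difference was 2.48, against 0.08 and 0.11 in Htt25Q arrays 2 and 3. The median standard deviation of a probe set was 0.172 in the ume1 deletion and 0.132 in Htt103Q. Among the groups that lent their spread it was 0.2503 in Htt25Q, 0.0845 in the bna4 deletion and 0.1297 in the mbf1 deletion. The bna4 and mbf1 arrays had a lowest value of their own and belong to another processing set. The fit of the ume1 deletion, Htt103Q and Htt25Q arrays, given below, leaves them out.

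Of the 9275 probe sets, 234 were called (2.52%), 155 higher (1.67%) and 79 lower (0.852%) in the ume1 deletion. Over the 5656 genes with a probe set of their own, 127 were called higher (2.25%) and 59 lower (1.04%), and the median difference was 0.003. Without array 1 of the ume1 deletion, 99 genes were higher (1.75%) and 48 lower (0.849%). All 3 deletion arrays lay above all 3 Htt103Q arrays for 757 genes (13.4%) and below them for 678 (12%). These shares are the background for each gene list below. The share of all genes at an unadjusted p under 0.05 was not counted. List counts at that threshold therefore have no background here and cannot be read as a shift of the list. The number of calls rested on single arrays: 104 of the 234 probe sets, 70 higher and 34 lower, were called with all arrays and again without each of the 6 arrays in turn. It also rested on the arrays lent for the spread, since 103 probe sets were called with these 6 arrays alone, 46 with the 9 arrays of the ume1 deletion, Htt103Q and Htt25Q, and 572 without Htt25Q array 1. Below, "the 6 arrays" and "the 9 arrays" are these smaller fits. Apart from UME1 and probe set 3982_at, which has no gene symbol, the largest changes were a few-fold, and most called genes lay at middle signal.

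**Figure D1:**
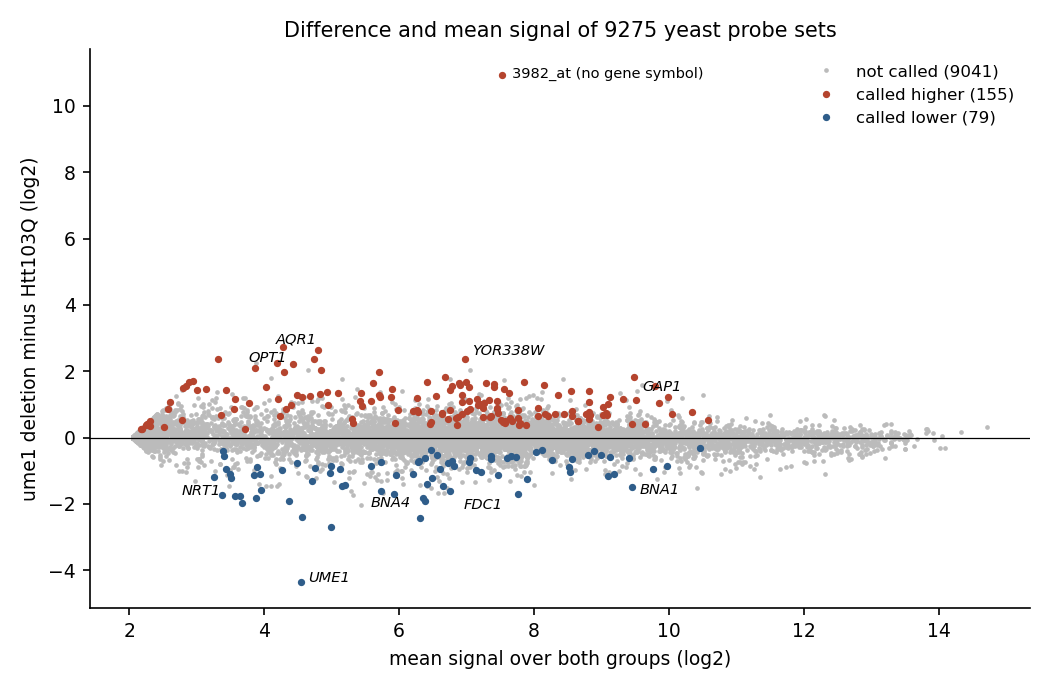
Each point is 1 of 9275 probe sets, with its mean signal over both groups on the x axis (log2) and the ume1 deletion minus Htt103Q on the y axis (log2), and colours mark the 155 probe sets called higher and the 79 called lower. UME1 sits lowest at -4.37, and the point far above the rest is probe set 3982_at.

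Of the 10 genes of de novo NAD synthesis, 4 were lower and none was higher, against 1.04% of genes lower in all. Their median difference was -0.72, 9 of 10 were below 0, and 6 had groups that did not overlap on the lower side. BNA2, the dioxygenase that opens the pathway on tryptophan, had 5.69, 5.69 and 4.94 in the ume1 deletion, against 7.45, 7.30 and 7.01 in Htt103Q, a difference of -1.81 ± 0.323 (adjusted p = 0.0131). BNA4, kynurenine 3-monooxygenase, had 5.19, 4.82 and 4.78, against 6.44, 6.71 and 6.46, a difference of -1.61 ± 0.135 (adjusted p = 1.14e-04). BNA1, which makes the precursor of quinolinic acid, had 8.98, 8.74 and 8.42, against 10.31, 10.18 and 10.11, a difference of -1.49 ± 0.194 (adjusted p = 0.00256). The deletion arrays of these 3 genes all lay below the Htt103Q arrays, and the genes stood 2.81-fold to 3.51-fold lower. In bulk RNA, fewer cells with a transcript and less of it per cell cannot be told apart.

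BNA5, kynureninase, had 6.86, 6.85 and 7.02 in the ume1 deletion, against 8.49, 8.75 and 8.57 in Htt103Q. The groups were far apart for their spread, and the difference was -1.69 with an adjusted p of 0.0374, but this call was lost without any 1 of the 6 arrays (adjusted p of 0.0616 to 0.142). With only the 6 arrays fitted its adjusted p was 0.0163. BNA2 lost its call without Htt103Q array 2 (adjusted p = 0.0572), and BNA1 and BNA4 kept theirs without each array. Without ume1 deletion array 1, 3 of the 10 genes were lower and the median was -0.53. With 1 of the 6 arrays left out in turn, 2 to 4 genes of the list were called. The 6 arrays alone called 3 lower, and the 9 arrays called BNA4 alone (adjusted p = 0.00901, against 0.0642 for BNA1, 0.142 for BNA2 and 0.246 for BNA5).

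The other genes of the list were not called. QNS1, NAD synthetase, had 6.95, 7.47 and 8.08 in the ume1 deletion, against 8.12, 8.40 and 8.26, a difference of -0.76 that did not pass (adjusted p = 0.138). BNA7, the formamidase, differed by -0.25, and BNA6, which makes the mononucleotide, by -0.39, neither called. The 3 probe sets of NMA2, an adenylyltransferase, gave -0.39, -0.65 and -1.02, with adjusted p-values of 0.477, 0.0712 and 0.0592. NMA1, its paralog, differed by -0.02. BNA3, a kynurenine aminotransferase on a side branch, was the single gene above 0, at 0.42 (adjusted p = 0.494).

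Of 13 genes for NAD salvage and uptake, NRT1 alone was lower and none was higher, and the list's median was -0.08. NRT1, the nicotinamide riboside transporter, had 3.44, 2.59 and 2.87 in the ume1 deletion, against 4.97, 4.69 and 4.74 in Htt103Q, 3.56-fold lower (-1.83 ± 0.191, adjusted p = 5.36e-04). TNA1, the nicotinic acid permease, had 8.23, 8.12 and 7.52, against 8.78, 8.63 and 8.56, with groups that did not overlap but no call (-0.70, adjusted p = 0.0604). The salvage enzymes NPT1 and PNC1 differed by -0.14 and 0.14. The list had 2 lower without ume1 deletion array 1, while the 6 arrays alone called none and the 9 arrays called 1 lower. BNA genes and several middle sporulation genes are known targets of repression by Sum1 with the NAD-dependent deacetylase Hst1 and Rfm1. Of 10 sirtuin and Sum1-complex genes none was called by limma, and at an unadjusted p under 0.05 there was 1 higher and 1 lower. SUM1 differed by -0.58 (adjusted p = 0.306), HST1 by -0.09 and RFM1 by 0.17.

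**Figure D2:**
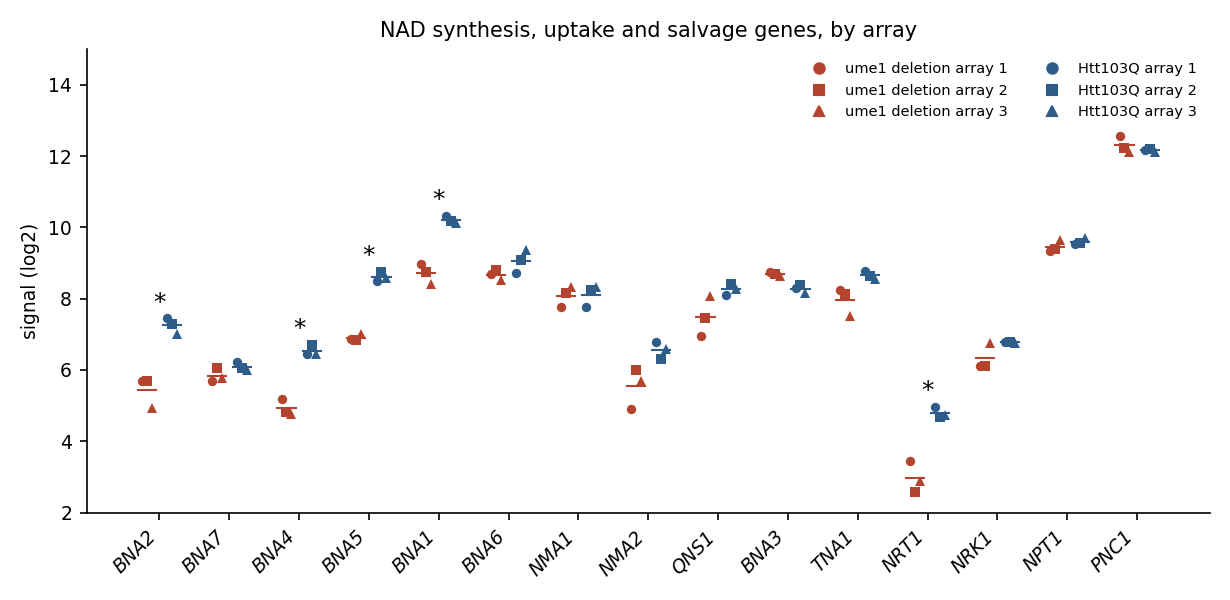
Signal (log2, y axis) of NAD genes in each array, with ume1 deletion arrays left of Htt103Q arrays, a bar at each group's mean and an asterisk where the probe set was called; the probe set with the smallest p is shown for each gene. BNA2, BNA4, BNA5, BNA1 and NRT1 are lower in all 3 deletion arrays, while NMA1 differs by -0.02.

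Among 22 genes of the Rpd3 complexes and related deacetylases, UME1 was lower and SAP30 higher. SAP30, a subunit of the large complex, had 7.56, 7.74 and 7.65 in the ume1 deletion, against 6.90, 6.69 and 6.44 in Htt103Q (0.97 ± 0.151, adjusted p = 0.00646), a call kept without each array. RPD3, the catalytic subunit, differed by 0.01 and SIN3, the scaffold, by -0.29 (adjusted p = 0.481). UME6 had 5.64, 5.37 and 4.99, against 4.90, 4.90 and 4.84, all deletion arrays above all Htt103Q arrays but not called (0.45, adjusted p = 0.202). The list's median was -0.03, and 0.06 without ume1 deletion array 1. SAP30 was not called with the 6 arrays (adjusted p = 0.0741) or the 9 arrays (0.0881).

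Early meiotic genes did not move together. Of 37 measured, 3 were higher and 2 lower, with a median of 0.03 and 25 above 0, and 7 lay at the floor in all 6 arrays. RED1, of the meiotic chromosome axis, had 5.78, 5.39 and 5.14 in the ume1 deletion, against 4.40, 4.55 and 4.43 in Htt103Q (0.98 ± 0.18, adjusted p = 0.0155). REC104, needed for meiotic recombination, had 3.68, 2.47 and 3.26, against the floor in all 3 Htt103Q arrays, at least 2.11-fold higher (adjusted p = 0.0247). The Htt103Q and Htt25Q arrays shared that exact lowest value for REC104 and lent it no spread. Its p-value may thus understate the variation between arrays. The meiotic kinase gene IME2 had 2.78, 2.64 and 2.61, against 2.40, 2.34 and 2.36 (0.31, adjusted p = 0.0292). All of these signals lay below the array medians, and no RED1, REC104 or IME2 array of the deletion overlapped the Htt103Q range.

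On the lower side stood HFM1, a meiotic helicase gene, at -1.19 (adjusted p = 0.0202), and SPO1, at -0.39 (adjusted p = 0.0436). REC102, a partner of REC104, had 3.74, 3.81 and 3.32, against 2.44, 2.39 and 2.46, and did not pass (1.19, adjusted p = 0.0693). SPO13, HOP1 and ZIP2, among the best-known genes under Ume6 control, were at or near the floor in all 6 arrays. None of the 5 calls held in every leave-out: RED1 lost its call without Htt103Q array 3 (adjusted p = 0.0659), REC104 lost its call without ume1 deletion array 3 and each Htt103Q array (0.0531 to 0.0879), and IME2 without ume1 deletion arrays 1 and 2 and Htt103Q arrays 2 and 3 (0.0631 to 0.122). HFM1 lost its call without ume1 deletion arrays 1 and 2 and Htt103Q arrays 1 and 3 (0.054 to 0.074), and SPO1 without every array but Htt103Q array 3 (0.0693 to 0.171). Without ume1 deletion array 1, 2 were higher and none lower, and without Htt103Q array 3 none was higher. The 6 arrays called 1 lower and none higher, and the 9 arrays called none of the list.

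Of 9 metabolic genes known to be under Ume6 control, ACS1 was higher and none lower. ACS1, an acetyl-CoA synthetase, had 7.78, 7.75 and 7.82 in the ume1 deletion, against 7.0, 6.81 and 6.41 in Htt103Q (1.05 ± 0.172, adjusted p = 0.00887), a call kept without each array but absent with the 6 arrays (0.0866) and the 9 arrays (0.115). INO1, inositol phosphate synthase, had 10.66, 11.10 and 10.57, against 11.84, 11.68 and 11.70, and did not pass (-0.96, adjusted p = 0.0563). The arginase gene CAR1 differed by 0.48 and the ornithine transaminase gene CAR2 by 0.05, neither called.

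Middle and late sporulation genes, which act in spore formation after Ndt80, had more lower than higher calls. Of 45 measured, 5 were lower and 1 higher, 13 lay at the floor in all 6 arrays, and 11 did not overlap on the lower side and 5 on the higher. SSP1, of the prospore membrane's leading edge, had 3.04, 2.81 and 2.24 in the ume1 deletion, against 4.58, 4.41 and 4.35 in Htt103Q (-1.75 ± 0.18, adjusted p = 4.73e-04). MIP6, encoding an RNA-binding protein, had 2.64, 2.61 and 2.27, against 4.54, 4.24 and 3.93 (-1.73 ± 0.213, adjusted p = 0.00197). IRC18 had 3.81, 3.49 and 2.95, against 5.45, 5.40 and 5.11 (-1.90 ± 0.328, adjusted p = 0.0114). SHC1, an activator of chitin synthase in sporulation, went the other way, with 5.48, 4.98 and 5.04, against 4.34, 3.68 and 3.84 (1.21 ± 0.158, adjusted p = 0.00256).

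CDA2, a spore wall chitin deacetylase gene, was lower by 1 of its 3 probe sets (5.44, 6.25 and 6.04, against 7.15, 7.55 and 7.47, adjusted p = 0.0162), and the other sets lay near the floor. SPS100, another spore wall gene, was lower, at -1.13 (adjusted p = 0.0193). SSP1, MIP6 and SHC1 kept their calls without each array. IRC18 lost its call without Htt103Q array 2 (adjusted p = 0.0506), CDA2 without ume1 deletion array 1 and Htt103Q arrays 2 and 3 (0.0538 to 0.0742), and SPS100 without ume1 deletion array 1 and Htt103Q arrays 1 and 2 (0.0529 to 0.0742). The list had 4 lower and 1 higher without ume1 deletion array 1, and without Htt103Q array 2 it had 2 lower. The 6 arrays called 3 lower and none higher, and the 9 arrays 1 lower and none higher. NDT80 itself differed by -0.07.

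Mating genes were lower in a few members. Of 36 genes of the pheromone pathway and its targets, 2 were lower, none was higher, and 10 did not overlap on the lower side. FUS1, needed for cell fusion, had 4.92, 4.23 and 4.15 in the ume1 deletion, against 5.84, 5.96 and 5.84 in Htt103Q (-1.45 ± 0.181, adjusted p = 0.00197). STE12, the pathway's transcription factor, had 6.45, 6.42 and 6.41, against 7.13, 7.07 and 7.24 (-0.72 ± 0.133, adjusted p = 0.0164), a call lost without ume1 deletion array 2 (adjusted p = 0.0556) and Htt103Q array 3 (0.0775). AGA1, an agglutinin anchor, differed by -1.18 (adjusted p = 0.218), and SST2, which turns the signal off, by -1.0 (adjusted p = 0.182). The 6 arrays called 1 of the list lower, and the 9 arrays none.

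All 7 a-specific genes were below 0, with a median of -0.76, and 5 did not overlap, yet limma called none. At an unadjusted p under 0.05, 5 were lower and none higher. BAR1, the alpha-factor protease, had 8.63, 9.62 and 9.36 in the ume1 deletion, against 10.56, 10.64 and 10.16 in Htt103Q (-1.25, adjusted p = 0.182). STE6, the a-factor exporter, had 7.31, 7.54 and 7.31, against 8.13, 8.36 and 8.21 (-0.84, adjusted p = 0.115). The 6 arrays alone called 2 of the 7 lower, and the 9 arrays none.

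**Figure D3:**
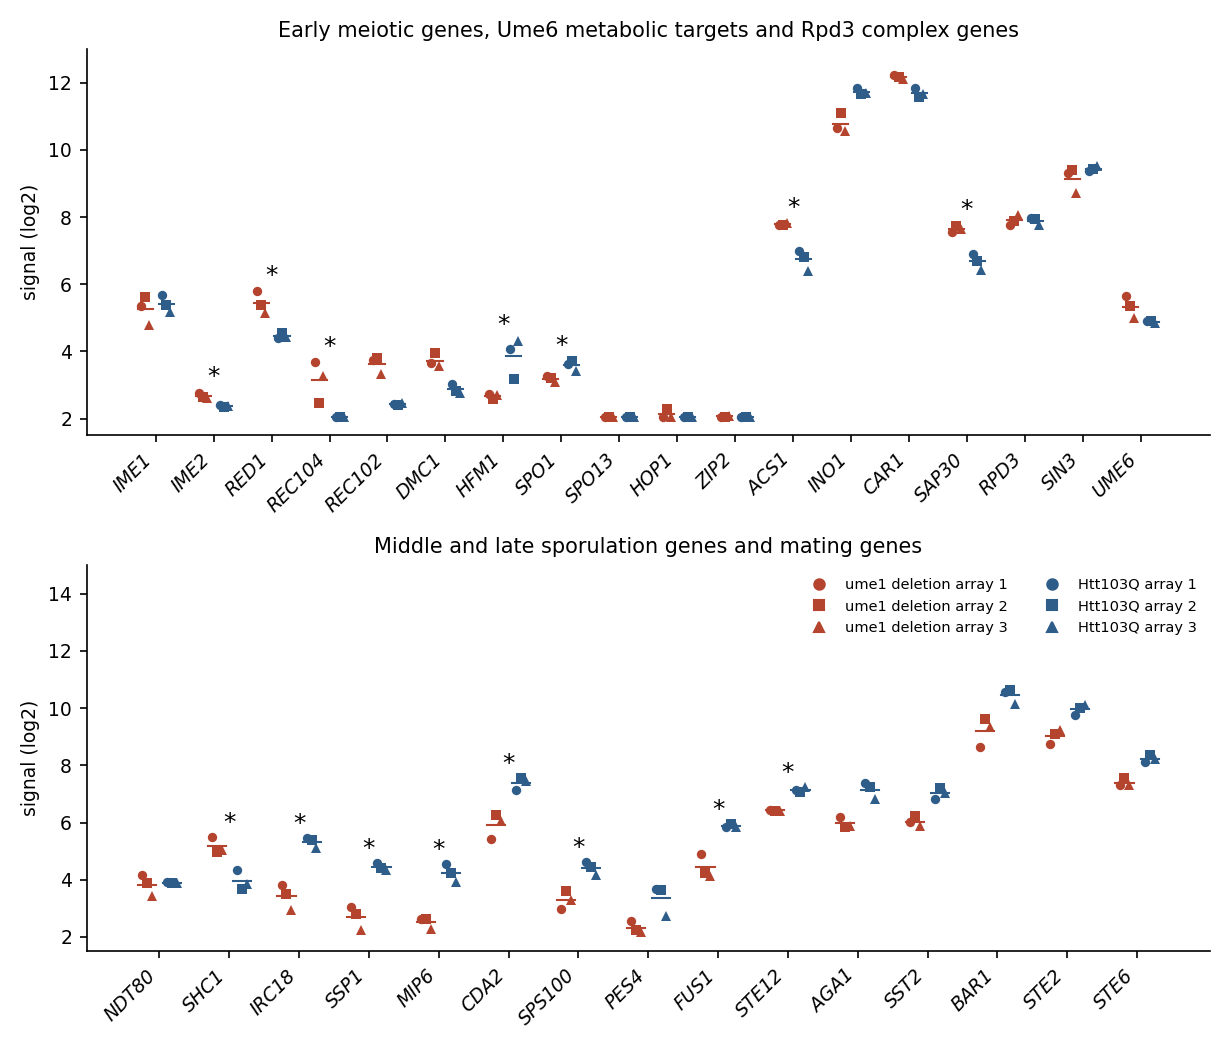
Signal (log2, y axis) in each array for meiotic, Ume6-controlled and Rpd3 complex genes (upper panel) and for sporulation and mating genes (lower panel), with ume1 deletion arrays left of Htt103Q arrays, bars at group means and asterisks over called probe sets. REC104 is at the floor in Htt103Q, SPO13 is at it in both groups, and SSP1, MIP6, IRC18 and FUS1 are lower in all 3 deletion arrays.

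Several of the largest rises were in transport genes. AQR1, a plasma membrane exporter, had 5.27, 5.62 and 6.0 in the ume1 deletion, against 3.81, 2.55 and 2.37 in Htt103Q, 6.6-fold higher (2.72 ± 0.384, adjusted p = 0.00378). OPT1, the oligopeptide and glutathione transporter, had 5.09, 4.99 and 4.65, against 3.01, 2.74 and 2.73, 4.24-fold higher (2.08 ± 0.147, adjusted p = 2.67e-05). AGP1, a broad amino acid permease, had 10.31, 10.25 and 10.56, against 9.38, 9.36 and 9.28 (1.03 ± 0.162, adjusted p = 0.00693). QDR1, a multidrug exporter, was the single lower gene of this list, at 2.69, 3.10 and 3.08, against 3.99, 3.88 and 3.82 (-0.94 ± 0.102, adjusted p = 7.08e-04).

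In all, 5 of 33 genes listed for amino acid and peptide transport were higher and 1 lower, with a median of 0.17, against 2.25% and 1.04% of all genes. The 5 include ICY1, which is not known as a transporter gene. DIP5, the permease for acidic amino acids, had 8.03, 8.32 and 8.15, against 6.75, 6.59 and 6.58 (1.53, adjusted p = 0.0318), and ICY1 had 10.30, 10.37 and 10.49, against 8.48, 8.48 and 8.74 (1.82, adjusted p = 0.0281). Both had tight, well-separated groups, both were called with the 6 arrays alone (adjusted p = 0.0211 and 0.0163) but not with the 9 arrays (0.199 and 0.201), and both lost the call when any 1 array was left out (up to 0.117 and 0.109). The list had 3 higher and 1 lower without ume1 deletion array 1, 6 higher and 1 lower with the 6 arrays, and 1 higher and 1 lower with the 9 arrays. AQR1 was not called with the 6 arrays (adjusted p = 0.101) or the 9 arrays (0.0558).

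Of 30 genes of nitrogen catabolite repression, 5 were higher and 1 lower, with a median of 0.15. MEP2, an ammonium permease and sensor, had 8.21, 8.73 and 9.09 in the ume1 deletion, against 6.92, 7.0 and 7.10 in Htt103Q (1.67 ± 0.274, adjusted p = 0.00887). GAP1, the general amino acid permease, had 9.84, 10.09 and 10.30, against 8.83, 9.05 and 8.93 (1.14 ± 0.137, adjusted p = 0.00154). MEP3, another ammonium permease, had 9.52, 9.19 and 9.41, against 8.62, 8.67 and 8.76 (0.69, adjusted p = 0.0035). DAL4, the allantoin permease, was lower, with 3.59, 3.02 and 2.89, against 4.89, 4.53 and 4.81 (-1.58 ± 0.232, adjusted p = 0.00478). The groups did not overlap for any of these 4 genes, and each kept its call without each array.

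DUR3, the urea and polyamine transporter, was higher by 1.68 (adjusted p = 0.0164), with array 1 of the deletion nearest to Htt103Q (7.15, 8.27 and 8.07, against 6.35, 5.99 and 6.10). It lost its call without ume1 deletion arrays 2 and 3 and Htt103Q arrays 2 and 3 (0.0526 to 0.0743). UGA2, of gamma-aminobutyrate breakdown, was higher by 1.03 (adjusted p = 0.0196), a call lost without ume1 deletion arrays 2 and 3 and Htt103Q arrays 1 and 2 (0.0505 to 0.0814). Without ume1 deletion array 1 the list had 5 higher and 1 lower, with the 6 arrays 3 higher and none lower, and with the 9 arrays 1 higher and none lower. MEP2, MEP3 and DAL4 were called in neither smaller fit (adjusted p of 0.0674 to 0.0881), and GAP1 with the 9 arrays (0.0412) but not the 6 (0.0533). The amino acid biosynthesis list under Gcn4 had no call by limma among 60 genes (median 0.12), and 3 higher and 2 lower at an unadjusted p under 0.05.

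Of 39 genes of acetate use and gluconeogenesis, 5 were higher and none lower, with a median of 0.19 and 29 above 0. The count of higher genes was 5 without each of the 6 arrays, and 3 both with the 6 arrays alone and with the 9 arrays. CAT2, carnitine acetyltransferase, had 7.23, 6.97 and 7.34 in the ume1 deletion, against 5.98, 6.02 and 5.74 in Htt103Q (1.27 ± 0.105, adjusted p = 1.13e-04). CRC1, the mitochondrial carnitine carrier, had 6.81, 6.93 and 6.83, against 5.75, 5.52 and 5.76 (1.18 ± 0.114, adjusted p = 3.15e-04). SFC1, the succinate-fumarate carrier, had 5.84, 6.03 and 6.44, against 5.02, 4.59 and 4.69 (1.33 ± 0.198, adjusted p = 0.005). IDP2, cytosolic isocitrate dehydrogenase, was higher by 0.65 (adjusted p = 0.013), and ACS1, given above, was the other. None of these genes had groups that overlapped.

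Among 17 genes regulated by oxygen and heme, ANB1 and AAC3 were higher and none lower. ANB1, the hypoxic form of the translation factor eIF5A, had 5.92, 5.81 and 5.85 in the ume1 deletion, against 4.18, 3.64 and 3.64 in Htt103Q, 4.13-fold higher (2.05 ± 0.287, adjusted p = 0.00365). HYP2, its aerobic and near-identical copy, whose RNA can reach the ANB1 probes, differed by 0.34 (adjusted p = 0.534). AAC3, a hypoxic ADP/ATP carrier, had 5.27, 5.09 and 5.05, against 3.74, 3.90 and 3.91 (1.29 ± 0.222, adjusted p = 0.0114). Of 16 zinc genes, 2 were higher and none lower. IZH4 had 7.54, 7.47 and 7.66, against 6.20, 5.96 and 5.84 (1.56 ± 0.15, adjusted p = 3.15e-04), and IZH1 had 9.48, 9.57 and 9.5, against 8.42, 8.06 and 7.86 (1.40 ± 0.132, adjusted p = 2.93e-04). Both encode membrane proteins of zinc homeostasis, and the counts of the zinc and oxygen lists were the same without each array. With the 6 arrays they were also 2 each, and with the 9 arrays 2 zinc genes and no oxygen gene were called. In the iron list FET4, a low-affinity iron carrier, was the single call of 31 (1.43, adjusted p = 0.0125), lost without ume1 deletion array 2 and Htt103Q arrays 2 and 3 (0.0517 to 0.0568).

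**Figure D4:**
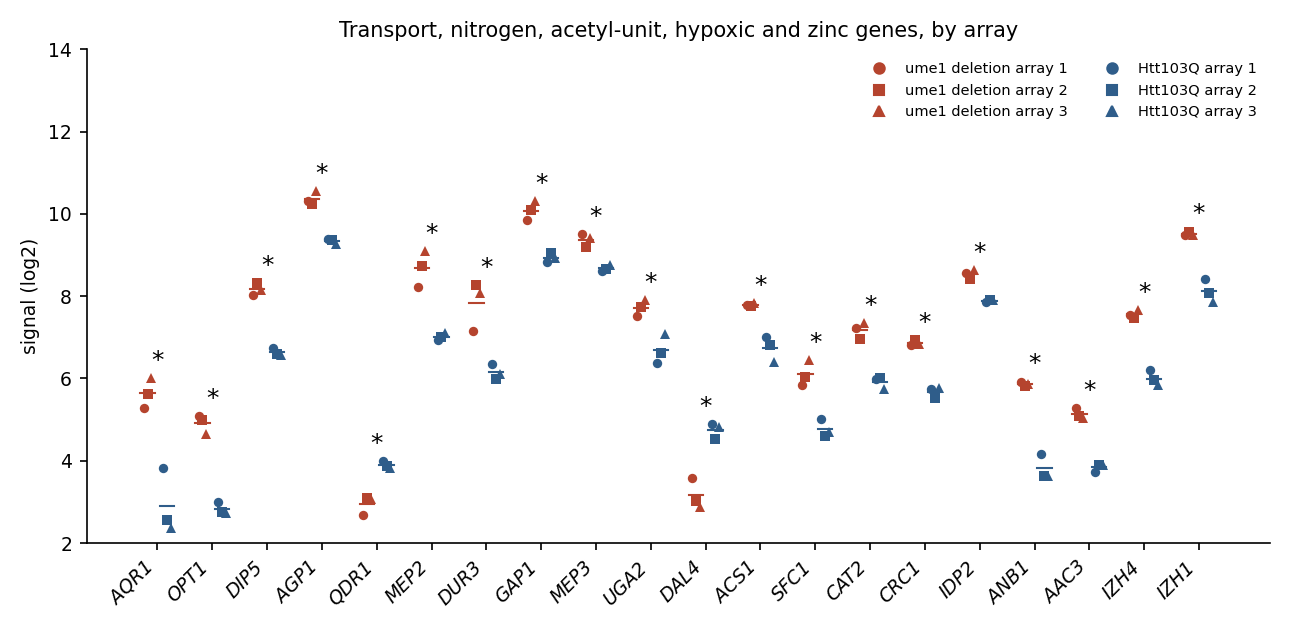
Signal (log2, y axis) in each array for called genes of transport, nitrogen use, acetyl-unit metabolism, hypoxia and zinc, with ume1 deletion arrays left of Htt103Q arrays, bars at group means and asterisks over called probe sets. Every gene shown except QDR1 and DAL4 is higher in the deletion.

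Ribosome biogenesis genes were shifted upward as a list by a small amount. Of 123 measured, 9 were higher and none lower, 117 were above 0, the median was 0.43 and 45 did not overlap on the higher side (13.4% of all genes). The list's median deviation was 0.04, 0.24 and 0.38 in ume1 deletion arrays, against -0.02, -0.24 and -0.40 in Htt103Q arrays, so array 1 of each group lay close together. DBP2, an RNA helicase gene, had 10.48, 10.57 and 10.72, against 9.90, 9.11 and 9.12 (1.21, adjusted p = 0.0147), and DBP6, another, had 8.82, 8.71 and 8.87, against 8.39, 8.02 and 7.84 (0.72 ± 0.116, adjusted p = 0.00806). NSR1, encoding a nucleolar protein, was higher by 0.72 (adjusted p = 0.0211). DBP6 kept its call without each array, DBP2 lost it without Htt103Q arrays 2 and 3 (0.072 and 0.0707), and NSR1 without ume1 deletion arrays 2 and 3 and Htt103Q arrays 2 and 3 (0.0558 to 0.0879). The count of the list ran from 1 without Htt103Q array 3 to 13 without Htt103Q array 1, with 2 without ume1 deletion array 2, 3 each without ume1 deletion array 3 and Htt103Q array 2, and 6 without ume1 deletion array 1 (median 0.51). The 6 arrays called 2 and the 9 arrays none. RRS1 (0.85, adjusted p = 0.0438), ROK1 (0.72, 0.0465) and RLP7 (0.72, 0.0131), other factors of ribosome assembly, were called higher; RRS1 and ROK1 lost the call without every array but Htt103Q array 1 (0.0578 to 0.178), and RLP7 without ume1 deletion array 2 and Htt103Q array 3 (0.0536 and 0.0661). Ribosomal RNA signal was highest in ume1 deletion array 1, and its part in these values was not tested.

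Small nucleolar RNA genes, a class picked after its values were seen, had 5 higher and none lower of 57, with a median of 0.25. SNR3, which guides pseudouridylation of ribosomal RNA, had 7.30, 7.62 and 7.53 in the ume1 deletion, against 6.01, 6.11 and 5.98 in Htt103Q (1.45 ± 0.0991, adjusted p = 2.67e-05). SNR11 had 8.18, 7.64 and 7.26, against 6.22, 6.01 and 6.14 (1.57 ± 0.267, adjusted p = 0.0107). Both kept their calls without each array. SNR34 was higher by 0.87 (adjusted p = 0.00477), kept without each array, and SNR9 by 0.84 (0.0115), lost without Htt103Q array 3 (0.0568). SNR54 was higher by 1.36 (adjusted p = 0.0424), lost without ume1 deletion arrays 2 and 3 and Htt103Q arrays 2 and 3 (0.103 to 0.173). The list had 6 higher without ume1 deletion array 1, and 2 both with the 6 arrays and with the 9 arrays. Of 91 tRNA genes, also picked afterwards, limma called none (10 lower and none higher at an unadjusted p under 0.05). The tRNA median was -0.30, with 0.04, -0.01 and -0.71 by array in the deletion, against 0.49, 0.02 and 0.05 in Htt103Q, so it rested on deletion array 3 and Htt103Q array 1, and the median was -0.49 without deletion array 1.

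**Figure D5:**
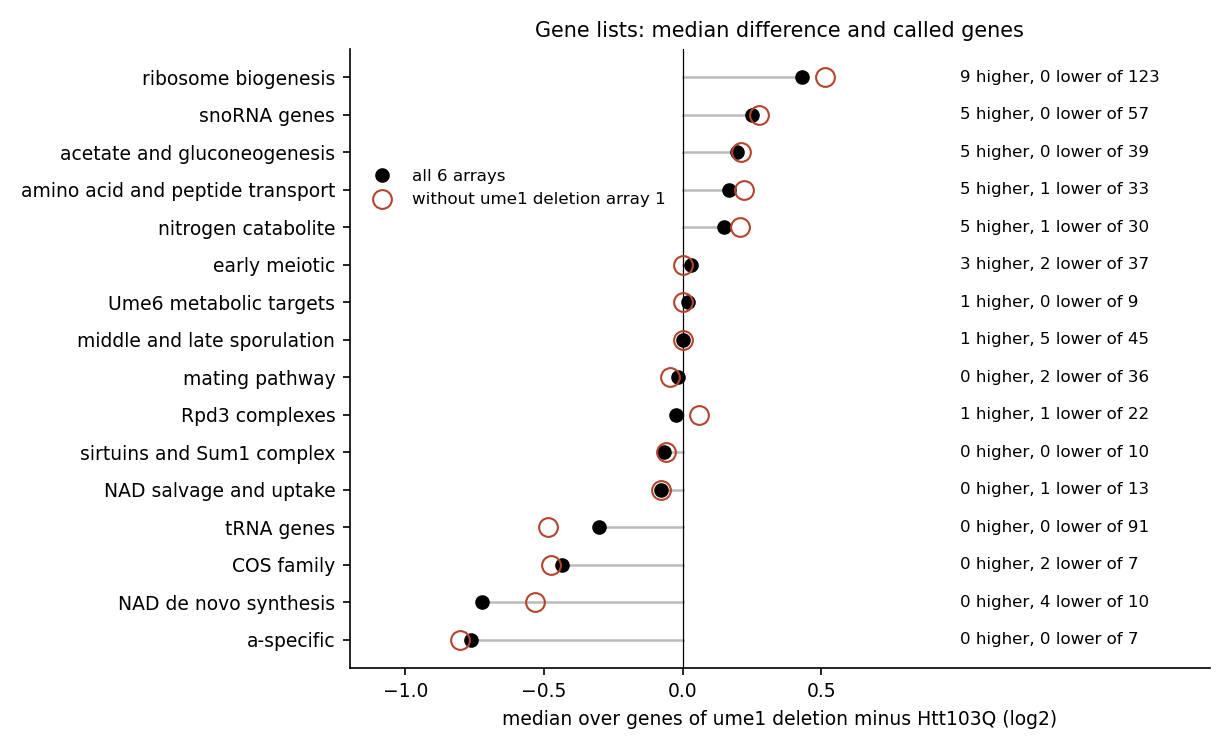
Median difference of each gene list (x axis, ume1 deletion minus Htt103Q, log2), with filled points for all 6 arrays, open circles without ume1 deletion array 1, and the number of genes called beside each list. NAD de novo synthesis (-0.72) and a-specific genes (-0.76) lie lowest and ribosome biogenesis (0.43) highest.

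Several lists tied to huntingtin toxicity and to stress had few or no calls. In the chaperone list of 41, JJJ3, a J-protein gene, was the single call (1.1, adjusted p = 0.0254), lost without 5 of the 6 arrays (Htt103Q array 1 was the exception; adjusted p up to 0.114). Of 44 proteasome genes limma called none, with 2 higher and 3 lower at an unadjusted p under 0.05 and a median of -0.01. Of 61 stress genes under Msn2 and Msn4 it called none, with 1 higher and 5 lower unadjusted. The unfolded protein response list of 27 had no call and 3 lower unadjusted. Oxidative phosphorylation (39 genes, median -0.16) had none, with 1 higher and 4 lower unadjusted, and mitochondrial ribosome genes (71, median -0.08) had none, with 8 lower unadjusted. The galactose list of 10, which reads the medium that drives the fragment's promoter, had no call, none at an unadjusted p under 0.05 and a median of -0.04. In the oxidative stress list GTT2, a glutathione transferase gene, was the single call of 34 (0.76, adjusted p = 0.00315), kept without each array but absent with the 6 arrays (0.0971) and the 9 arrays (0.066).

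Some of the other largest changes fell in no list. YOR338W, of unknown function, had 8.36, 8.10 and 8.04 in the ume1 deletion, against 6.28, 5.74 and 5.35 in Htt103Q, 5.21-fold higher (2.38 ± 0.329, adjusted p = 0.0035). EFM6, a methyltransferase gene acting on a translation elongation factor, had 7.22, 6.34 and 6.49, against 5.06, 4.62 and 4.44 (1.98 ± 0.214, adjusted p = 6.94e-04). TOS3, a kinase that activates Snf1, had 9.03, 8.97 and 8.80, against 7.46, 7.18 and 7.44 (1.58 ± 0.174, adjusted p = 7.88e-04). On the lower side, DAK2, dihydroxyacetone kinase, had 5.80, 5.46 and 5.04, against 7.05, 7.63 and 7.32, 3.74-fold lower (-1.90 ± 0.173, adjusted p = 2.24e-04). FDC1, a decarboxylase of aromatic acids, had 6.08, 5.98 and 5.78, against 7.55, 7.71 and 7.44 (-1.62 ± 0.186, adjusted p = 0.00109). These 5 genes had no overlapping arrays and kept their calls without each array. TOS3 and FDC1 were also called with the 6 arrays and with the 9 arrays, YOR338W with the 6 alone (adjusted p = 0.046, against 0.0598 with the 9), and EFM6 and DAK2 with the 9 alone (0.0407 and 0.0279, against 0.0851 and 0.0706 with the 6).

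CMR3, a zinc finger gene, had 8.05, 7.67 and 7.42 in the ume1 deletion, against 6.55, 5.95 and 5.72 in Htt103Q (1.64, adjusted p = 0.00382). YNL095C had 6.79, 6.31 and 6.17, against 5.30, 4.63 and 4.44 (1.63, adjusted p = 0.00365), and YOL014W had 3.57, 4.29 and 3.76, against 2.48, 2.39 and 2.38 (1.45, adjusted p = 0.00231). YKL068W-A had 6.86, 7.25 and 7.63, against 5.72, 5.83 and 5.20 (1.66, adjusted p = 0.0107). YKL183C-A had 3.93, 3.44 and 4.01, against the floor in all 3 Htt103Q arrays, at least 3.24-fold higher (adjusted p = 0.00887). A group at the floor has little or no spread, so the p-value of YKL183C-A may understate the variation between arrays. The deletion arrays of these 5 genes all lay above the Htt103Q arrays, and each call held without each array. YIL014C-A was lower, with 4.32, 5.66 and 5.22, against 6.85, 6.82 and 6.65 (-1.71, adjusted p = 0.005), and it too kept its call.

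Other large changes were less stable. YDR042C had 4.38, 5.81 and 5.78 in the ume1 deletion, against 3.25, 3.26 and 2.69 in Htt103Q (2.26, adjusted p = 0.0271), and TDA6 had 7.46, 8.40 and 8.44, against 6.50, 6.41 and 6.47 (1.64, adjusted p = 0.023). In both, deletion array 1 lay nearest to Htt103Q, and both calls were lost without ume1 deletion arrays 2 and 3 and Htt103Q arrays 2 and 3 (0.0681 to 0.117). AST1, with a role in sorting the plasma membrane proton pump, was higher by both of its probe sets (1.46 and 1.15, adjusted p = 0.0306 and 0.00902), and the first of these calls was lost without every array but Htt103Q array 1 (0.0691 to 0.126). YGL204C had 4.37, 4.08 and 3.69, against 5.37, 5.34 and 5.38 (-1.32, adjusted p = 0.0303), a call lost without every array but ume1 deletion array 1 (0.0621 to 0.105).

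Of 47 cell cycle genes, SIC1 was higher and RNR1 and CLB6 lower. RNR1, the large subunit of ribonucleotide reductase, had 9.37, 9.76 and 9.52 in the ume1 deletion, against 10.51, 10.20 and 10.49 in Htt103Q (-0.85 ± 0.109, adjusted p = 0.00231). SIC1, the inhibitor of S-phase kinases, had 9.32, 9.43 and 9.57, against 8.80, 8.77 and 8.54 (0.74 ± 0.115, adjusted p = 0.00646). CLB6, an S-phase cyclin, differed by -0.94 (adjusted p = 0.0147), a call lost without ume1 deletion array 1 and Htt103Q arrays 2 and 3 (0.0569 to 0.07). Of the COS family, subtelomeric membrane protein genes of which 7 had a probe set of their own, COS7 (-1.98, adjusted p = 0.0114) and COS8 (-1.25, adjusted p = 0.0393) were lower. Each was called by 1 of its probe sets and not by the others, and these genes are near-identical copies. COS7 lost its call without Htt103Q arrays 2 and 3 (0.0526 and 0.0568) and COS8 without every array but Htt103Q array 1 (0.0771 to 0.161). Probe sets shared by several COS genes were also called lower, and no single gene can be named from them. Sets 3483_f_at and 3739_f_at, of COS3 and COS2, differed by -0.591 and -0.681 (adjusted p = 0.0417 and 0.0295). Set 3738_s_at, of COS1, COS3, COS2 and COS4, differed by -1.097 (adjusted p = 0.0334). The cell cycle list had 1 higher and 1 lower without ume1 deletion array 1, none with the 6 arrays, and 1 higher and 1 lower with the 9 arrays, while the COS list had 1 lower in each of these 3 fits.

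The remaining lists held scattered calls. Peroxisome genes had 3 higher of 39 (PXA1 0.66, PEX11 0.56 and PEX17 0.44), none of which was called by limma without Htt103Q array 2 or 3 (adjusted p up to 0.162). Sterol genes had 2 higher of 27, MVD1 (0.41) and IDI1 (0.31), with none without ume1 deletion array 1 (adjusted p = 0.115 and 0.0585) and a list median of -0.04. Autophagy genes had 1 higher of 32, ATG5 (0.84, adjusted p = 0.00477), kept without each array but absent with the 6 arrays (0.0978) and the 9 arrays (0.0703), and 10 higher at an unadjusted p under 0.05. Genes of RNA polymerases I and III had 1 higher of 36, the polymerase I factor gene RRN3 (0.61, adjusted p = 0.0175), lost without ume1 deletion arrays 1 and 2 and Htt103Q arrays 2 and 3 (0.0527 to 0.0813). Of 45 cell wall genes, 2 were lower, GSC2 and WSC4. GSC2, a glucan synthase subunit, was called by a probe set at -0.60 (adjusted p = 0.0486), lost without any 1 array (0.0827 to 0.164). The mean over the probe sets of GSC2 was -0.91. WSC4 differed by -1.14 (adjusted p = 0.0196), a call lost without every array but ume1 deletion array 1 (0.0502 to 0.0758). IMD2, of guanine nucleotide synthesis, was the single call among 19 purine genes, by 1 of its 3 probe sets (-1.16, adjusted p = 0.015), lost without Htt103Q arrays 2 and 3 (0.0517 and 0.0663). HXT4, a hexose transporter gene, was lower, at -0.97 (adjusted p = 0.0318) and the single call of 22, lost without every array but ume1 deletion array 3 (0.0631 to 0.134).

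PAU23, a cell wall mannoprotein gene, was the single call of 7 genes of the DAN and TIR families (0.46, adjusted p = 0.0492), lost without every array but Htt103Q array 1 (0.0771 to 0.182), and its probes can take RNA of related genes. THI4, of thiamine synthesis, was lower, at -0.70 (adjusted p = 0.0423) and the single call of 16 thiamine and vitamin B6 genes, lost without every array but ume1 deletion array 2 (0.0572 to 0.118). The probe set shared by THI12, THI11, THI13 and THI5 and that shared by SNZ2 and SNZ3 were also lower, and no single gene can be named from them. Limma called none of 29 sulfur genes (2 higher unadjusted), 24 phosphate genes (1 higher and 1 lower), 50 translation factor genes (1 higher and 4 lower), 30 phospholipid and fatty acid genes (2 higher and 7 lower), 4 histone genes (none), 4 alpha-specific genes (1 higher and 1 lower) and 17 genes of mitochondrial DNA (3 lower), where the counts in parentheses are at an unadjusted p under 0.05. The counts of these lists also moved without ume1 deletion array 1: oxidative stress had 2 higher, autophagy 2 higher, peroxisome 2 higher and 1 lower, cell wall 1 lower, and mitochondrial DNA and phospholipid genes 1 lower each. The DAN and TIR, hexose, thiamine, chaperone, RNA polymerase and sterol lists then had none. Of the same lists and the stress lists, the 6 arrays called 2 higher and 1 lower cell wall genes, 1 higher each among phosphate, chaperone, Msn2 and Msn4, and RNA polymerase genes, and 1 lower each among oxidative phosphorylation and mitochondrial ribosome genes. The 9 arrays called 1 higher peroxisome gene, 1 lower cell wall gene and 1 lower mitochondrial ribosome gene.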

How the data were processed

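Per the labels, biotin-labelled RNA was hybridised to 1-colour Affymetrix arrays, 15 in 5 groups of 3. The authors deposited log2 values, 1 for each array and probe set. How background was corrected and signal summarised, normalized or centred is stated neither in the labels nor in the file header. An exact lowest value of 2.06 was shared by the 9 arrays of the ume1 deletion, Htt103Q and Htt25Q. No scanner files were used here, so the number of arrays and the floor limit the precision.

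Of 9335 probe sets, 60 controls were left out, which left 9275: 6504 with 1 gene symbol, 328 with several and 2443 with none, from the platform annotation, updated by gene ID to RefSeq R64. In R 4.3.3, limma 3.58.1 fitted the 5 group means to the deposited log2 values of all 15 arrays (10 residual degrees of freedom), tested the ume1 deletion minus Htt103Q, and adjusted p-values by Benjamini-Hochberg over all 9275. The fit was also run on simulated arrays with independent normal noise. These had no cut at the floor, no array effects and no unequal spread of groups, so that run does not bear on those features of the data. A gene counted as called if any probe set of its own was called, and a list's median is over each gene's mean. A group within 0.1 of the lowest value in all arrays was at the floor. The alternatives are given in the closing section.

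Named genes were UME1, its neighbours and marker loci, the 20 largest non-overlapping rises and falls, members of the Rpd3, meiotic, NAD, sirtuin and mating lists, and up to 6 called members of each other list. The comparison, the lists and the rule were chosen with earlier results of these data known. Coordinates and sequences were not used here.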

Additional observations from a re-analysis of the deposited data

Results flagged for a closer look

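Both results in this part set a call of the report beside signals in the Htt25Q, bna4 and mbf1 arrays, which only lent their spread to the test. Probe set 3982_at, which has no gene symbol here and was picked after its values were seen, had 13.05, 13.13 and 12.81 in the ume1 deletion and lay at the floor of 2.06 in all 3 Htt103Q arrays, at least 10.94 higher on the log2 scale. It was also at the floor in the 3 Htt25Q arrays, and its lowest value over the 6 bna4 and mbf1 deletion arrays was 12.7. It was thus high in the arrays of all 3 deletion strains and at the floor in those of both strains without a deletion.

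REC104 was measured by probe set 4362_at. It lay at the floor in the Htt103Q and Htt25Q arrays, and its lowest value over the 6 bna4 and mbf1 deletion arrays was 3.73, against 3.68, 2.47 and 3.26 in the ume1 deletion. The bna4 and mbf1 arrays belong to another processing set with its own lowest value, so levels across the sets were not tested against each other.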

How the results depend on the processing

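The difference of UME1 kept its direction and its call under every alternative run. None of the 89 called probe sets that the rule names changed sign, but this was largely fixed in advance. These sets were picked as called with all arrays, and the alternatives that change only the spread leave each difference as it was. Without ume1 deletion array 1, list medians near 0 changed sign in 6 lists: Rpd3 complexes (0.06, against -0.03 with all arrays), purine (0.10, against -0.04), unfolded protein response (0.03, against -0.08), proteasome (0.02, against -0.01), translation factors (0.01, against -0.04) and thiamine (-0.01, against 0.04). The 234 calls depended on the arrays that gave the spread: 46 with the 9 arrays of the ume1 deletion, Htt103Q and Htt25Q, 103 with the 6 arrays alone, 572 without Htt25Q array 1, 1002 with array weights (whose estimate stopped before its convergence tolerance), and 113 when at least 2-fold was also asked. An alternative added after the data were seen, without both ume1 deletion array 1 and Htt25Q array 1, called 482. Leaving out 1 of the 6 arrays gave 127 to 287 calls, the lowest without Htt103Q array 3 (127) and array 2 (128) and the highest without Htt103Q array 1. Quantile normalization gave 246 calls, of which 206 were shared with the main 234, and median centring 260, of which 218 were shared. Centring each array within chromosomes, also added after the data were seen, gave 245, of which 188 were shared. The fit with the replicate number as a block called 240, of which 198 were shared. Array deviations with the same number correlated at 0.369, -0.171 and 0.448. No correlations between different numbers were set beside these, so they cannot show whether the numbers pair the samples. Of the 89 named probe sets, 25 stayed called with the 6 arrays alone, 22 with the 9 arrays, 79 after quantile normalization, 78 under the block and 65 without ume1 deletion array 1. Probe sets near the floor have only bounds, and the cause of these shifts in the counts was not tested.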

Other observations

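The lower genes were unevenly placed along the chromosomes, a pattern looked at after the values were seen. Counting genes inward from each chromosome end in the R64 gene order, 12 of 193 genes among the outermost 10 were lower (6.22%) and 5 higher, against 47 of 5444 further in that were lower (0.863%) and 122 higher. Among the outermost 5, 7 of 67 were lower (10.4%) and none was higher: COS7, COS8, FDC1, IMD2, YDR541C, YHL048C-A and YIR043C. YHL048C-A had 6.20, 5.43 and 5.50 in the ume1 deletion, against 6.93, 7.19 and 7.19 in Htt103Q (-1.40, adjusted p = 0.00197), and YDR541C had 5.13, 4.29 and 4.0, against 6.14, 5.85 and 5.75 (-1.44, adjusted p = 0.00867). Without ume1 deletion array 1, 8 of the 193 were lower, with the 6 arrays alone 4, and 6 to 11 without 1 array in turn. For the 5444 genes further in, these counts were 39, 27 and 25 to 54. Groups did not overlap on the lower side for 36 of the 193 and 641 of the 5444, and on the higher side for 21 and 736. The median difference was 0 in the outermost 10 and 0.005 further in. COS7 and COS8 belong to a family of near-identical copies, and sharing of probes among the outermost genes was not checked, so these genes may not be independent.

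Calls also differed between chromosomes, a split chosen after the values were seen. On chromosomes I to IX, 38 genes were higher and 44 lower of 2695, with a median of -0.04, and on chromosomes X to XVI, 89 were higher and 15 lower of 2942, with a median of 0.05. Htt103Q array 3 moved only in part with this split. Its median was -0.14, -0.15, -0.12, -0.07 and -0.11 on chromosomes X to XIV, while the other 5 arrays lay between -0.03 and 0.06 there. On XV and XVI it was -0.06 and -0.04. In the other part of the split it lay between -0.02 and 0.05 on II to IX, but was lowest of all on chromosome I (-0.20). Without Htt103Q array 3, 45 were higher and 9 lower on X to XVI (median 0.01), and 16 and 28 on I to IX. Without ume1 deletion array 1, the counts were 64 and 13 on X to XVI, and 35 and 34 on I to IX. With 1 array left out in turn, higher counts on X to XVI ran from 45 to 115 and lower counts from 4 to 16, while those on I to IX ran from 16 to 48 and from 27 to 49. After each array was centred within chromosomes the counts were 46 and 45 on I to IX, and 73 and 31 on X to XVI.

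Of the 32 probe sets called among the 2443 with no gene symbol, 25 were higher and 7 lower. Over all 9275 probe sets, 234 were called (2.52%), 155 higher (1.67%) and 79 lower (0.852%), so calls were less frequent in this class. The largest fall among those with no gene symbol was probe set 4600_at, with 3.06, 3.93 and 3.95 in the ume1 deletion, against 6.23, 6.29 and 6.52 in Htt103Q.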
